A study of Mus musculus with 12 samples.

Results

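The experiment set a 4 h exposure of mammary epithelial spheroids to GDF11 against 4 h in serum-free medium alone. It was made up of all arrays that the labels give to these 2 conditions, 8 of the 12 in the series: 4 with 250 ng/mL GDF11 and 4 with serum-free medium and no added ligand. The other 4 arrays, with 50 ng/mL TGFB1, entered the normalization, the detection filter, the choice of probe and the estimate of the spread. They are set beside GDF11 at the end. All groups were NMuMG cells, an established mouse mammary gland epithelial line, plated on Matrigel at 5000 cells a well and kept for 6 days in growth medium, renewed on day 4. Every array holds RNA of 2 pooled wells, which the labels call a biological replicate. The change from growth medium to serum-free medium was common to the groups, the cells are a single line, and the extract is of whole spheroids on a basement membrane gel.

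GDF11 is a secreted ligand of the TGF-beta family and a close relative of myostatin. It binds activin type II receptors, which switch on the type I receptors ALK4 and ALK5, and these phosphorylate SMAD2 and SMAD3. The phosphorylated SMADs join SMAD4, enter the nucleus and act at genes together with partners such as AP-1 factors. Epithelial cells of the mammary gland stop dividing under such ligands, and many lose junctions and gain matrix and actin genes. Of the genes for these parts, Tgfbr1, which encodes ALK5, was detected on all 8 arrays and Acvr1b, which encodes ALK4, on none. Acvr2b was detected on all 8 arrays, and Acvr2a on 3 arrays with GDF11 and 1 in serum-free medium. The genes Gdf11, Smad4 and Fn1 were not analysed here.

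Mean raw intensity, in scanner units, was 154.0, 285.1, 310.0 and 255.5 on the 4 arrays with GDF11, against 148.7, 165.1, 283.0 and 160.4 on the 4 in serum-free medium. GDF11 replicate 1 and serum-free replicates 1, 2 and 4 were thus dim, and the other 4 were bright. The groups averaged 251 ± 68.5 with GDF11 and 189 ± 62.8 in serum-free medium (SD, n = 4, two-sided exact permutation p = 0.286, where 4 against 4 can reach 0.0286). Probes detected made up 41.2% to 49.5% with GDF11 and 42.4% to 48.6% in serum-free medium. Arrays of the same group correlated at 0.949 to 0.995 after normalization. The number of arrays limits the precision of every value.

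**Figure D1:**
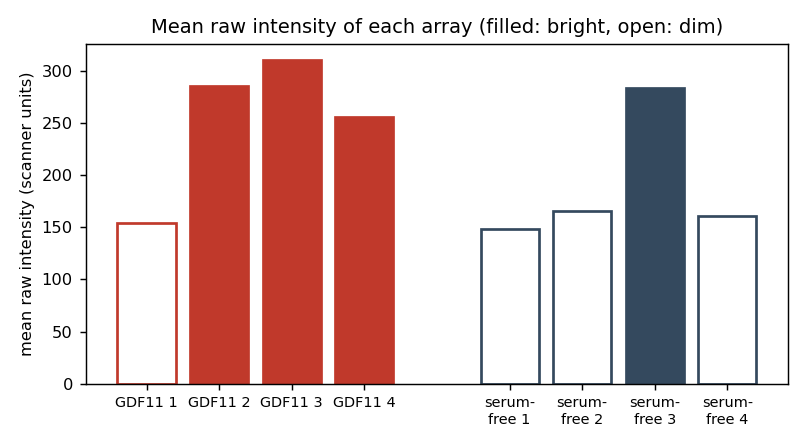
Mean raw intensity (scanner units, y axis from 0) of the 4 GDF11 arrays on the left and the 4 serum-free arrays on the right, filled where bright and open where dim. GDF11 1, at 154.0, lies among the dim serum-free arrays, and serum-free 3, at 283.0, among the bright GDF11 arrays.

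Many genes differed with brightness: with a term for it in the model, 4494 of 9134 genes differed between bright and dim arrays. Every GDF11 value was therefore also estimated with that term, and within the bright arrays (GDF11 replicates 2, 3 and 4 minus serum-free replicate 3) and the dim arrays (GDF11 replicate 1 minus the mean of serum-free replicates 1, 2 and 4). Of 14 luminal mammary markers with a probe, Krt7, Krt8, Krt18, Krt19, Cdh1 and Foxa1 were detected on all 8 arrays, while Elf5, Gata3, Cldn3, Prlr and Csn2 were detected on none. Of 11 basal markers with a probe, Itgb4 and Mylk were detected on all 8 arrays, Krt14 and Acta2 each on 4 arrays with GDF11 and 2 in serum-free medium, and the other 7, among them Krt5, Krt15, Krt17 and Trp63, on none. None of the 4 basal markers tested was called. Raw intensity summed over these 4 was 1122 to 1754 with GDF11 and 762 to 1227 in serum-free medium. For the 8 luminal markers tested that sum was 6976 to 31966 with GDF11 and 5218 to 27270 in serum-free medium. Of 11 fibroblast, 9 endothelial, 9 leukocyte and 6 adipocyte markers, 9, 5, 7 and 4 were detected on none of the 8 arrays, among them Col1a1, Cdh5, Ptprc and Adipoq. The fibroblast, leukocyte and endothelial lists had 1 tested member each (Vim, Cd14 and Flt1), so their raw intensities are those of single genes. Vim had 484 to 1623 with GDF11 and 321 to 1475 in serum-free medium. Cd14 had 463 to 1751 with GDF11 and 526 to 1716 in serum-free medium. Flt1 had 136 to 254 with GDF11 and 125 to 206 in serum-free medium. The 2 adipocyte markers tested, Cidec and Pparg, summed to 248 to 427 with GDF11 and 240 to 501 in serum-free medium. Among the markers tested, Cldn4 (luminal) and Cidec (adipocyte), neither well above background in serum-free medium, rose at least 5.41-fold and at least 1.33-fold (adjusted p = 0.0288 for Cidec), and Pparg (adipocyte) fell by 0.56 on the log2 scale (adjusted p = 0.0168). The part of these markers in the results was not tested.

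GDF11 changed 907 of 9134 genes, 9.93% of those tested (limma, adjusted p under 0.05). Of these, 437 rose (4.78%) and 470 fell (5.15%), with median log2 changes of 0.80 and -0.71. In bulk RNA, more RNA per cell and more cells that express a gene cannot be told apart. The change was at least 2-fold for 202 genes, 123 up and 79 down, and at least 4-fold for 13, of which 11 rose and 2 fell. With the brightness term 953 genes were called, 513 up and 440 down, and 661 were called in the same direction with and without the term (7.24%), among them 191 of the 202 and all 13 at 4-fold. The sign was the same within bright and within dim arrays for 901 of the 907 genes (99.3%), set against 4661 of all genes tested (51.0%), although the choice of called genes used these same arrays. The 4 GDF11 arrays did not overlap the 4 serum-free arrays for 973 genes, or 10.7%.

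Leaving out any 1 of the 8 arrays moved the count of calls by over 1.5 times. Without GDF11 replicate 1, 2, 3 or 4 it was 3367, 517, 496 or 444, and without serum-free replicate 1, 2, 3 or 4 it was 571, 512, 2833 or 503. The 2 arrays whose removal raised it are the dim GDF11 array and the bright serum-free array. With the bright arrays alone 563 genes were called, 327 up and 236 down. That set has a single serum-free array, and the dim set a single GDF11 array, each assumed to vary like the other groups. Scaling each array by its median in place of quantile normalization called 190 genes, 176 up and 14 down, so that 92.6% rose, against 48.2% in the main fit. It raised the median log2 change of all genes from -0.02 to 0.39. Changes below are on the quantile scale, given as log2 change ± SE. The authors' processed values, whose log base is not given in the sources used here, gave changes that were mostly smaller, with a median of 0.586 times the size over the called named genes and a range of 0.148 to 1.10 times. Of the 180 called genes in the named set, 116 were called without each of the 8 arrays in turn, and the other 64, all with an adjusted p of at least 0.0133, lost the call without 1 to 6 of them. GDF11 replicates 2, 3 and 4 ended 52, 55 and 59 of these calls, and serum-free replicates 1, 2 and 4 ended 49, 51 and 55. GDF11 replicate 1 and serum-free replicate 3 ended none in these fits, which held no brightness term. Leaving out the first leaves all GDF11 arrays bright, and leaving out the second leaves all serum-free arrays dim. With the term, leaving them out ended 91 and 56 of the 180 calls.

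**Figure D2:**
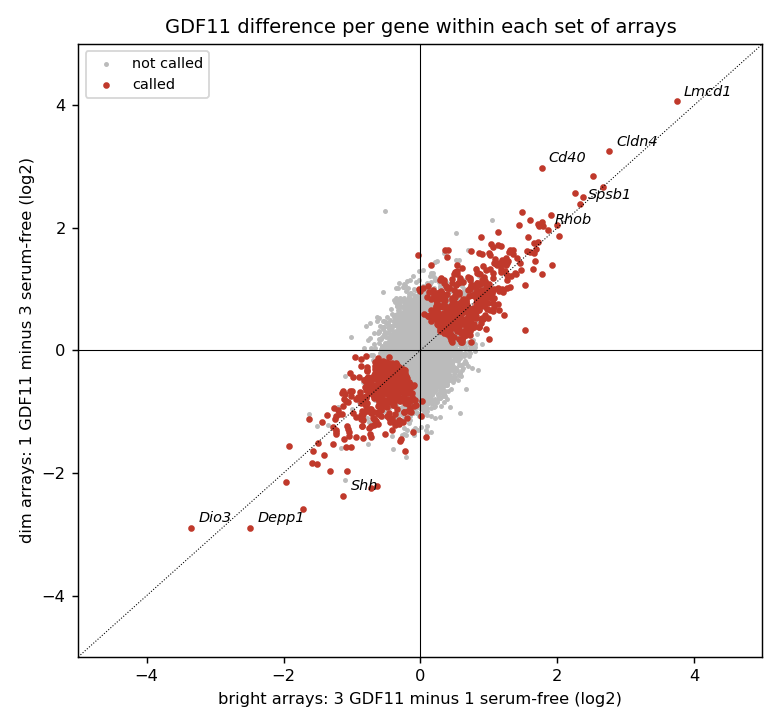
Each point is a gene tested, with its log2 difference (GDF11 minus serum-free medium) among the bright arrays on the x axis and among the dim arrays on the y axis. Called genes are red and others grey; 901 of the 907 called genes have the same sign on both axes, and Lmcd1 and Dio3 lie at the 2 ends.

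The largest rise was that of Lmcd1, a LIM domain cofactor of transcription factors. Its normalized log2 intensities were 9.05, 9.38, 9.27 and 9.47 with GDF11, against 4.95, 4.70, 5.63 and 5.28 in serum-free medium. All GDF11 arrays lay more than 3 log2 units above the highest serum-free array, a change of 4.15 ± 0.18 or 17.8-fold (adjusted p = 2.02e-08). In the authors' processed values the change of Lmcd1 was 2.35 (adjusted p = 2.86e-08). The other 2 Lmcd1 probes gave fitted changes of 3.42 and 2.56, the second of them detected on no serum-free array. Rhob, an endosomal GTPase induced by growth factors, stood at 9.31, 10.75, 10.65 and 10.70 with GDF11, against 7.45, 6.91, 8.84 and 7.66 in serum-free medium. The dim GDF11 array was the lowest of its group and the bright serum-free array the highest of the other, yet the groups did not overlap (change 2.64 ± 0.37, adjusted p = 0.000562, 1.92 with the brightness term). Bhlhe40, a basic helix-loop-helix repressor, had 9.99, 9.98, 10.29 and 10.10 with GDF11, against 7.59, 7.88, 8.21 and 7.88 in serum-free medium. Its arrays lay close together within each group, and the change was 2.20 ± 0.14 (adjusted p = 4.14e-07). Spsb1, a substrate adaptor of ubiquitin ligases, had 8.12, 8.09, 8.17 and 8.13 with GDF11, against 5.54, 6.01, 5.79 and 5.65 in serum-free medium. The GDF11 arrays, dim and bright, spanned under 0.1 log2 units, and the change was 2.38 ± 0.12 (adjusted p = 8.22e-08).

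Cldn4, a claudin of tight junctions, was not well above background on any serum-free array. It had 7.55, 6.73, 7.10 and 6.86 with GDF11, against 4.30, 4.44, 4.14 and 4.16 in serum-free medium, where serum-free values are background readings. The dim GDF11 array was the highest, and the rise was at least 5.41-fold (adjusted p = 2.68e-07). In the authors' processed values the change of Cldn4 was 0.95 (adjusted p = 1.22e-05). Il11, a secreted cytokine of the IL-6 family, had 7.91, 6.79, 7.36 and 8.19 with GDF11, against 4.59, 5.51, 4.92 and 5.12 in serum-free medium. It was detected on all 4 GDF11 arrays and 3 serum-free arrays, and the groups were over 1.2 log2 units apart at their nearest (change 2.53 ± 0.27, adjusted p = 5.17e-05). Sphk1, the kinase that makes sphingosine 1-phosphate, had 9.68, 8.76, 8.86 and 9.04 with GDF11, against 7.22, 7.19, 6.63 and 6.92 in serum-free medium. The dim GDF11 array was the highest of its group and the bright serum-free array the lowest of the other, and the change of 2.09 ± 0.19 was 2.41 with the brightness term (adjusted p = 1.66e-05 and 5.28e-08). Cd40, a TNF receptor family member of immune and epithelial cells, had 7.35, 5.69, 5.98 and 6.14 with GDF11, against 4.30, 4.49, 4.16 and 4.30 in serum-free medium. It too was not well above background in serum-free medium and rose at least 3.16-fold (adjusted p = 0.000486). The other 2 Cd40 probes, also detected on no serum-free array and on 4 and 1 GDF11 arrays, gave fitted changes of 0.58 and 0.13, neither of them called.

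Mab21l4 rose by 2.50 ± 0.15 (adjusted p = 2.95e-07), with means of 10.48 ± 0.25 with GDF11 and 7.98 ± 0.24 in serum-free medium (SD, n = 4). Arid3a, a DNA-binding protein that partners E2F1, rose by 2.16 ± 0.22 and Fam210b, a mitochondrial membrane protein, by 2.14 ± 0.13. Dram1, a lysosomal membrane protein that promotes autophagy, rose by 2.07 ± 0.21, and Epb41l2, which links the membrane to the spectrin and actin skeleton, by 2.00 ± 0.25. Arid3a and Epb41l2 were each detected on 2 serum-free arrays. Pmepa1, a membrane protein that restrains SMAD2 and SMAD3, rose by 1.97 ± 0.22 and was detected on 1 serum-free array. Ass1, the argininosuccinate synthase of arginine production, rose by 1.92 ± 0.14, with arrays at 7.30, 6.88, 7.15 and 7.43 with GDF11, against 5.17, 5.20, 5.55 and 5.14 in serum-free medium. The groups did not overlap for any of these genes, as the rule for choosing them required. All 30 leading rises and falls were called without each array in turn, the highest adjusted p being 0.00359. These genes were chosen for large called changes on the same arrays, and the fits held no brightness term, so this is no independent check.

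Promoter windows of 300 bases (250 before to 50 after the start, RefSeq, GRCm38.p6) were at hand for 11 of the 15 leading rises and 12 of the 15 leading falls, some with several starts. The letters TGANTCA, those of the AP-1 element, were searched on both strands, which for this motif are the same pattern. They stood in the windows of 4 of the 11 genes that rose, 36.4%, against 1 of the 12 that fell, 8.33%, and 6.60% of the 7063 tested genes with a window. No overlap with the other motifs searched was seen in the windows shown. The 4 are shown because genes for AP-1 subunits, below, also rose; TGANTCA and, in Cldn4, CAGACA on the reverse strand (TGTCTG) are in capitals, and each sequence runs from 5′ to 3′ on the gene's own strand.

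Cldn4, chr5:134946885-134947184, minus strand: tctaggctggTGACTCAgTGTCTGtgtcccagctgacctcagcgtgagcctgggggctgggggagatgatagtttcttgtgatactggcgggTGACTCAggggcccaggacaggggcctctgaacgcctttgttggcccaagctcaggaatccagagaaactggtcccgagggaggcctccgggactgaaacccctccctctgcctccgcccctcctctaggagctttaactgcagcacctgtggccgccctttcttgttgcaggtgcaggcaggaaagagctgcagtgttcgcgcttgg

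Il11, chr7:4778092-4778391, minus strand: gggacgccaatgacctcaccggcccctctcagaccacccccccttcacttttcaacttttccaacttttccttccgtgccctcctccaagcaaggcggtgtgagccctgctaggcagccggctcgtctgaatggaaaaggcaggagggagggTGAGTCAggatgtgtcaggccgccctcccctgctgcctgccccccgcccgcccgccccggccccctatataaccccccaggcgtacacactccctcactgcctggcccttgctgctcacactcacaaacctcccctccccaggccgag

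Sphk1, chr11:116531587-116531886, plus strand: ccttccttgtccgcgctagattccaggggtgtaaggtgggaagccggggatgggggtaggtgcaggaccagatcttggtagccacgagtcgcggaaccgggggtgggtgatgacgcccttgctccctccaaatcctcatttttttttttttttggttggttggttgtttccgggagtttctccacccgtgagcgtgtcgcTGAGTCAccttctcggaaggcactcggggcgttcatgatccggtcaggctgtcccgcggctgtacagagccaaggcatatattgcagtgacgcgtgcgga

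Mab21l4, chr1:93160899-93161198, minus strand: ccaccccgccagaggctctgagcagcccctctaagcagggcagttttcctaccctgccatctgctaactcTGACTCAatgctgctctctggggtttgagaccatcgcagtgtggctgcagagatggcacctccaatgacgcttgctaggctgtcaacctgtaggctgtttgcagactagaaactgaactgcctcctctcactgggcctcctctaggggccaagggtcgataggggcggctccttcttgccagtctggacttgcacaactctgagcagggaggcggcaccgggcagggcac

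In the windows shown, the AP-1 letters begin 240 and 158 bases before the start for Cldn4, 98 for Il11, 50 for Sphk1 and 180 for Mab21l4. Il11, Sphk1 and Mab21l4 have several starts, and some of their other windows lack the letters. In Sphk1 the same site lies 124 bases before another start. By window the letters stood in 5 of 17 for the rises and 1 of 12 for the falls, against 5.46% of windows of tested genes. CAGACA, the letters a SMAD3 or SMAD4 domain contacts, was found on either strand in 1 of the 11 rises and 3 of the 12 falls (Cdx2, Flrt3 and Kcnk5), against 18.8% of tested genes. The palindrome GTCTAGAC was found in neither set and in 0.269% of tested genes. The E-box letters CACGTG, which BHLHE40 can bind, stood in 2 of the 11 and 2 of the 12, against 12% of tested genes, and GGCGCC in 1 of the 11 and 2 of the 12, against 24.6%. A match is a description of letters within these windows.

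Dio3, the deiodinase that inactivates thyroid hormone, fell farthest. It had 5.54, 4.96, 5.45 and 5.0 with GDF11, against 8.38, 8.32, 8.48 and 8.59 in serum-free medium. The 2 groups were almost 3 log2 units apart at their nearest, and the change of -3.21 ± 0.14 was 9.23-fold (adjusted p = 2.27e-08), with -3.35 among bright and -2.89 among dim arrays. In the authors' processed values the change of Dio3 was -1.60 (adjusted p = 2.25e-08). Depp1, a FOXO target and autophagy regulator, had 6.04, 6.66, 6.56 and 5.99 with GDF11, against 8.77, 9.03, 8.89 and 9.01 in serum-free medium, a change of -2.61 ± 0.16 (adjusted p = 4.14e-07). Its serum-free arrays lay within 0.3 log2 units of each other. Shh, the sonic hedgehog ligand, had 4.24, 4.55, 4.40 and 4.52 with GDF11, against 6.44, 6.89, 5.62 and 6.51 in serum-free medium and was detected on 2 GDF11 arrays (change -1.93 ± 0.21, adjusted p = 6.55e-05). The bright serum-free array was the lowest of its group. A weaker Shh probe, detected on 2 GDF11 arrays and 1 serum-free array, gave -0.08.

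Ppp1r3c, the subunit that targets protein phosphatase 1 to glycogen, was not well above background on any GDF11 array. It had 4.22, 4.36, 4.29 and 4.24 with GDF11, against 6.13, 6.18, 5.36 and 6.25 in serum-free medium and fell at least 2.74-fold (adjusted p = 3.2e-05). Enzymes of conjugation and reduction followed: the glucuronosyltransferase gene Ugt2b35 changed by -1.89 ± 0.21 and the aldo-keto reductase gene Akr1c19 by -1.69 ± 0.24. Akr1c19 had 10.10, 9.40, 9.27 and 9.0 with GDF11, against 11.60, 11.32, 10.50 and 11.13 in serum-free medium, and the bright serum-free array lay nearest to the GDF11 arrays. Also lower were the potassium leak channel Kcnk5 (-1.84 ± 0.18), the IGF-binding protein Igfbp5 (-1.76 ± 0.25), the lectin-like ligand Clec2d (-1.76 ± 0.21) and the transcript that the array calls LOC100048721 (-1.72 ± 0.13). Transcription factors and cofactors among the falls were Cdx2, an intestinal homeobox factor (-1.68 ± 0.13), and Ppargc1b, a coactivator of mitochondrial genes (-1.66 ± 0.14). The last 3 were Spsb4, a relative of Spsb1 (-1.57 ± 0.21), Rasl11b, a Ras-like small GTPase (-1.57 ± 0.23), and Flrt3, a leucine-rich repeat adhesion protein (-1.56 ± 0.15). Cdx2 had 5.90, 6.30, 6.18 and 6.01 with GDF11, against 7.81, 7.84, 7.49 and 7.97 in serum-free medium, with a gap of over 1 log2 unit between the groups. With median scaling the falls of Cdx2, Clec2d, Flrt3, LOC100048721 and Ugt2b35 kept their sign and lost the call.

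**Figure D3:**
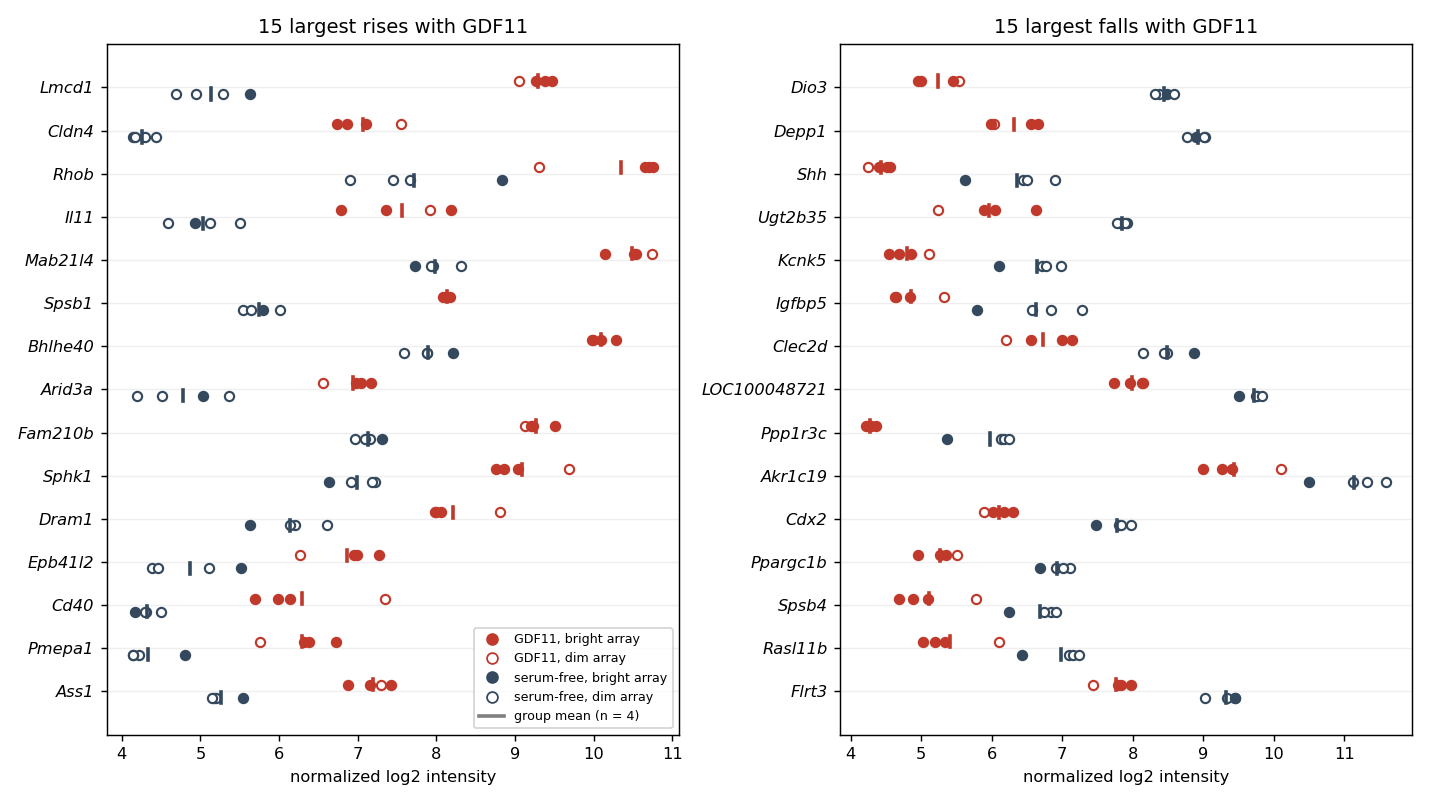
Normalized log2 intensity (x axis) of the 15 largest rises (left panel) and 15 largest falls (right panel) on each array, GDF11 in red above serum-free medium in blue-grey; filled points are bright arrays, open points dim arrays and bars the means of 4. In every row the red and blue-grey points are apart, by the rule that chose the genes, and levels of different rows come from different probes and are not compared.

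Gene lists of known function, drawn up with earlier results of these data known, held 1136 genes, of which 816 were tested and 161 called. For each list the counts are given beside the background of 9.93% called over all genes, whose median log2 change was -0.02.

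Of 10 receptor genes tested, 2 rose and 1 fell (median 0.17). Acvr1, the type I receptor ALK2, had 8.52, 8.86, 9.09 and 8.85 with GDF11, against 7.05, 7.18, 7.56 and 7.54 in serum-free medium, with a change of 1.5 ± 0.15 (adjusted p = 3.27e-05). Tgfbr1 had 12.96, 11.97, 12.16 and 11.96 with GDF11, against 10.94, 10.98, 10.30 and 10.87 in serum-free medium. The dim GDF11 array was the highest and the bright serum-free array the lowest, and the change was 1.49 ± 0.21 (adjusted p = 0.000606, 1.88 with the term); the other 3 Tgfbr1 probes gave 0.46, 1.43 and 2.24, all of them called, the first of them detected on no serum-free array. Tgfbr2, the type II receptor of TGF-beta, had 8.88, 8.92, 8.88 and 8.97 with GDF11, against 9.30, 9.23, 9.51 and 9.47 in serum-free medium and changed by -0.47 ± 0.11 (adjusted p = 0.019). That fall lost its call without 3 of the arrays in turn (highest adjusted p 0.0584), was -0.52 with the term, turned to 0.093 with median scaling, and had a second Tgfbr2 probe at 0.17. For the activin type II receptors the changes were 0.13 ± 0.14 (Acvr2a, adjusted p = 0.523) and -0.75 ± 0.27 (Acvr2b, adjusted p = 0.0918).

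None of 6 SMAD transducers and cofactors was called (median 0.22). Smad2 and Smad3, which carry the GDF11 signal, changed by -0.03 ± 0.19 and 0.45 ± 0.17 (adjusted p = 0.935 and 0.105). Among 12 negative regulators of the pathway, 4 rose and 1 fell (median -0.02). Beside Spsb1 and Pmepa1, the corepressor genes Tgif1 and Skil rose, by 1.19 ± 0.14 and 0.88 ± 0.18. The ubiquitin ligase gene Nedd4l, whose product marks activated SMAD2 and SMAD3 for degradation, had 7.87, 6.95, 6.94 and 6.85 with GDF11, against 8.76, 8.58, 8.03 and 8.65 in serum-free medium and fell by 1.35 (adjusted p = 0.0016). The dim GDF11 array was the highest of its group for Nedd4l. Smad7, the inhibitory SMAD, was detected on no GDF11 array and 1 serum-free array and was not tested, and Smad6 changed by -0.12 ± 0.16 (adjusted p = 0.61).

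Of 12 ligand and antagonist genes, 3 rose and 3 fell (median 0.32). Tgfb1 rose by 0.75 ± 0.13 and Ltbp1, which tethers latent TGF-beta to the matrix, by 0.83 ± 0.18, although the second Ltbp1 probe gave 0.06. For Ltbp1 the difference was 0.18 among bright arrays (adjusted p = 0.524) and 0.98 among dim arrays, and with median scaling it was 1.2 and not called (adjusted p = 0.202). Bmp4, a ligand of the SMAD1/5 branch, had 6.01, 5.6, 5.75 and 5.87 with GDF11, against 7.5, 7.22, 6.48 and 7.37 in serum-free medium, a change of -1.34 ± 0.19 (adjusted p = 0.000576). Its GDF11 arrays were all below its serum-free arrays. Lefty1, an inhibitor of Nodal signalling, and Gdf15, a stress-induced relative, changed by -0.73 ± 0.13 and -0.87 ± 0.13. Ltbp3 rose by 0.51 ± 0.15 and was not called with the term (0.32, adjusted p = 0.119) or without any 1 of 6 arrays (highest adjusted p 0.132). Inhba, which encodes the activin A subunit, changed by -0.18 ± 0.13 (adjusted p = 0.356).

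The list of SMAD2/3 target genes had 21 rises and 3 falls among 29 tested (median 0.91), but several of its members were put there with their change in these data known, so that its direction is no independent evidence. Beside the genes above, the cyclin-dependent kinase inhibitor gene Cdkn2b rose by 0.87 ± 0.15, the protease inhibitor gene Timp3 by 1.22 ± 0.25 and the matrix gene Thbs1 by 0.97 ± 0.15. The falls were Rasl11b, Tuft1 (-0.72 ± 0.18) and Arid5b (-0.93 ± 0.24). Tuft1 and Arid5b lost their calls without 6 and 5 arrays (highest adjusted p 0.075 and 0.0874), and with the term they changed by -0.44 and -0.55 and Arid5b was not called; a second Tuft1 probe gave -0.10.

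Of 7 genes of the SMAD1/5 branch 1 was called (median -0.30). Id3, an inhibitor of basic helix-loop-helix factors, had 4.77, 5.48, 5.33 and 5.28 with GDF11, against 5.68, 6.75, 7.28 and 6.55 in serum-free medium. The dim GDF11 array was the lowest of its group and the bright serum-free array the highest of the other, and the change was -1.35 ± 0.26 (adjusted p = 0.00543, -1.73 with the term). Its relatives Id1 and Id2 changed by -0.30 ± 0.15 and -0.13 ± 0.42 (adjusted p = 0.185 and 0.844). With the term Id1 and Id2 were at -0.54 and -0.98, both called (adjusted p = 0.00155 and 0.000219). With median scaling they were at 0.26 and 0.38, neither called.

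**Figure D4:**
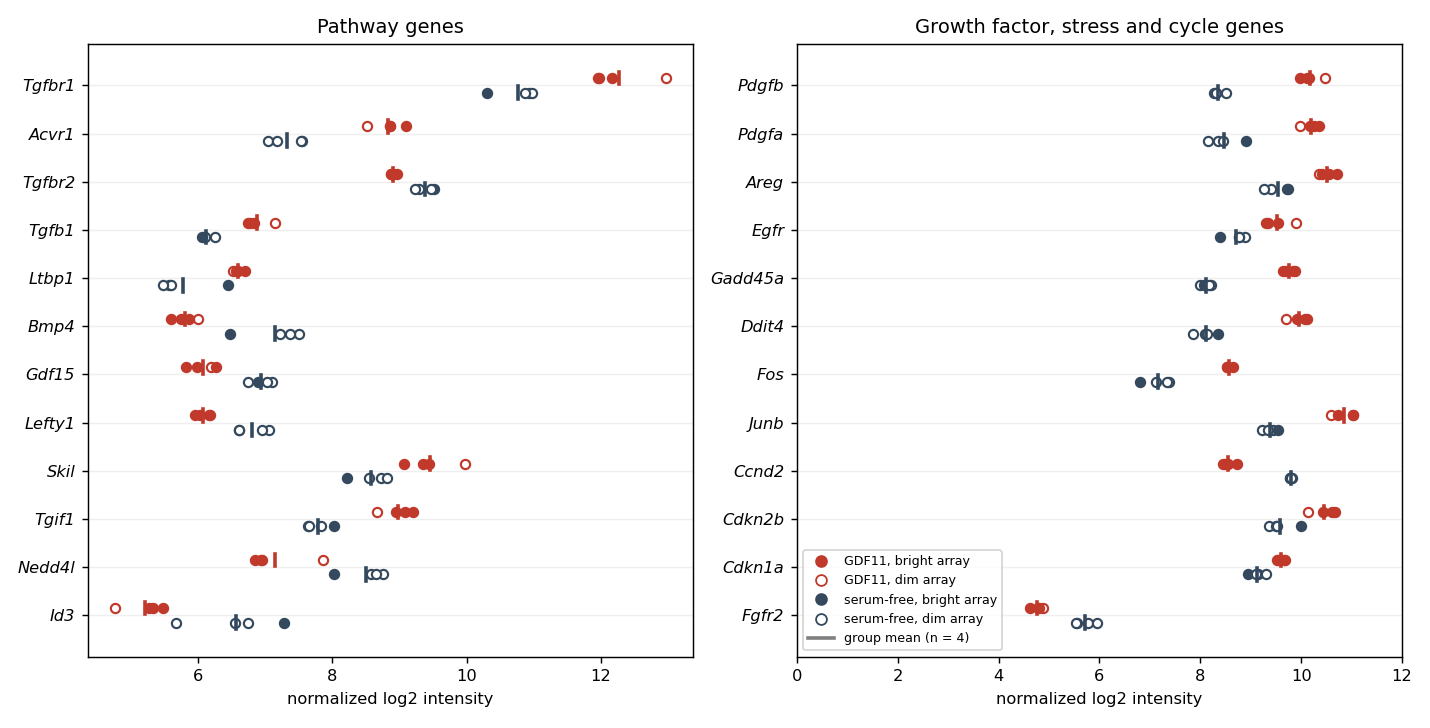
Normalized log2 intensity (x axis) of 12 genes of the TGF-beta pathway (left panel) and 12 genes of growth factor signalling, stress and the cell cycle (right panel) on each array, with GDF11 in red above serum-free medium in blue-grey; filled points are bright arrays, open points dim arrays and bars the means of 4. Tgfbr1, Acvr1, Pdgfb and Gadd45a lie to the right with GDF11, and Bmp4, Id3 and Ccnd2 to the left.

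Among 15 immediate-early factors 5 rose and none fell (median 0.35). Fos and Junb, which encode AP-1 subunits, had changes of 1.40 ± 0.13 and 1.46 ± 0.14. Fos stood at 8.52, 8.65, 8.55 and 8.53 with GDF11, against 7.11, 7.39, 6.81 and 7.34 in serum-free medium. Junb stood at 10.59, 11.03, 10.73 and 11.03 with GDF11, against 9.44, 9.23, 9.54 and 9.35 in serum-free medium. All GDF11 arrays were at least 1 log2 unit above all serum-free arrays for both. Egr2, a zinc finger factor, was not well above background in serum-free medium and rose at least 2.59-fold (adjusted p = 1.66e-05), and Ier3 rose by 0.85 ± 0.10. Maff rose by 1.14 ± 0.33 and lost the call with the term (0.56, adjusted p = 0.0968) and without any 1 of 6 arrays (highest adjusted p 0.14). Egr1, Jun and Atf3 were not called, with changes of -0.14, 0.44 and 0.14.

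Of 8 Krüppel-like factors, Klf13 and Klf9 rose (0.72 ± 0.15 and 0.53 ± 0.12) and Klf5, a factor of epithelial growth, changed by -0.78 ± 0.15 (adjusted p = 0.00472); the median was 0.03. Among 14 factors linked to epithelial-mesenchymal transition 5 rose and none fell (median 0.32). They were Sox9 (1.18 ± 0.20), Ets1 (0.96 ± 0.17), Runx1 (0.92 ± 0.19), Snai1 (0.91 ± 0.20) and Foxq1 (0.64 ± 0.15). Snai1, the zinc finger repressor of E-cadherin, had 5.22, 4.78, 5.65 and 5.59 with GDF11, against 4.28, 4.17, 4.78 and 4.40 in serum-free medium. It was detected on 4 GDF11 arrays and 1 serum-free array, and its lowest GDF11 array stood beside the highest serum-free array. Snai1 was not called among bright arrays alone (0.56, adjusted p = 0.265), with cyclic loess (0.41, adjusted p = 0.189), with median scaling (0.84, adjusted p = 0.181) or in the authors' processed values (0.21, adjusted p = 0.0701). Zeb1 changed by 0.32 ± 0.16 (adjusted p = 0.182). With the term Zeb1 was at 0.58 and called (adjusted p = 0.000925), and with cyclic loess at 0.36 and not called (adjusted p = 0.114). The other Ets1 probes gave -0.03 and 0.55, neither called, and Foxq1 lost its call without 1 array (adjusted p 0.0558). None of 11 epithelial transcription and splicing factors was called, and their median was -0.21.

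Of 12 tight junction genes 3 rose and none fell, Cldn4 and Cldn23 among the rises (median 0.31, -0.05 with the term). Cldn23 was not well above background in serum-free medium and rose at least 1.29-fold. In the list of 13 cadherin and desmosome genes Ctnnd1, which encodes p120-catenin, rose by 0.82 ± 0.12, and Ppl, the periplakin gene, changed by -0.59 ± 0.13 (median 0.15). Ppl lost the call without 1 array (adjusted p 0.0537), and a second Ppl probe gave 0.12. Cdh1, the E-cadherin gene, had 9.89, 10.76, 10.75 and 10.75 with GDF11, against 9.78, 9.29, 10.48 and 9.77 in serum-free medium. Its dim GDF11 array lay among the serum-free arrays, and the change was 0.71 ± 0.24 (adjusted p = 0.075, 0.27 with the term). Of 15 polarity genes Prkcz and Llgl2 fell (-0.61 ± 0.17 and -0.49 ± 0.14; median -0.09), but neither was called with the term (-0.37 and -0.31) or without any 1 of 6 arrays (highest adjusted p 0.117 to 0.124), and Llgl2 turned to 0.038 with median scaling.

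Keratin and cornified envelope genes went both ways, with 2 rises and 2 falls among 14 (median 0.50). Tgm2, a transglutaminase that cross-links matrix, rose by 0.76 ± 0.11, and the keratin gene Krt20 by 1.17 ± 0.24, or 0.71 with the term. The envelope precursor genes Ivl and Scel changed by -0.74 ± 0.20 and -0.73 ± 0.20 and lost their calls without 4 arrays each (highest adjusted p 0.107 and 0.108). Krt8 and Krt18, the luminal keratins, changed by 0.73 ± 0.26 and 1.03 ± 0.31 (adjusted p = 0.0941 and 0.0523). Vim, the mesenchymal filament gene, changed by 0.50 ± 0.20 (adjusted p = 0.114).

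Integrin genes showed 4 rises and no fall among 10 tested (median 0.43). Itgb6, whose product pairs with the alpha-v chain to activate latent TGF-beta, rose by 1.13 ± 0.15, and its other probes gave 1.25 and 1.60. Itga5, of the fibronectin receptor, rose by 1.09 ± 0.16 and Itgb5 by 1.43 ± 0.26. Itga6, of the laminin receptor, rose by 1.52 ± 0.34, 0.94 with the term. Of 22 matrix genes 7 rose and none fell (median 0.39). Among them were the laminin-332 chain Lamb3 (1.04 ± 0.13), Thbs1, the matricellular genes Ccn1 (1.12 ± 0.21) and Ccn2 (0.55 ± 0.16), the lysyl hydroxylase Plod2 (0.77 ± 0.20), and the anchoring collagen Col7a1 (0.74 ± 0.20). Ccn1 was 0.74 with the term. Ccn2, Plod2 and Col7a1 lost their calls without 3 to 5 arrays (highest adjusted p 0.0724 to 0.103). Col1a1, Col1a2 and Col3a1 were not detected on any of the 8 arrays.

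Of 20 matrix protease and inhibitor genes Timp3 and Mmp14, a membrane collagenase, rose (1.22 ± 0.25 and 0.47 ± 0.11; median 0.06). Among 4 membrane serine protease and Kunitz inhibitor genes Tmprss2 changed by -1.25 ± 0.18 (adjusted p = 0.000756; median 0.20). Of 29 actin and focal adhesion genes 5 rose and none fell (median 0.35, 0.18 with the term). Beside Lmcd1 these were the cross-linker Actn1 (0.91 ± 0.15), the adaptor Pdlim7 (0.78 ± 0.15), the thin filament regulator Cald1 (1.01 ± 0.24) and Palld (0.61 ± 0.16). Cald1 and Palld were not called with the term (0.69 and 0.45) or without some arrays (highest adjusted p 0.0591 and 0.11). Of 17 YAP and TEAD targets 4 rose and 1, Fjx1 (-0.96 ± 0.15), fell (median 0.06).

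Growth factor genes held some of the clearest rises. Of 6 PDGF and VEGF ligand genes 3 rose and 1 fell (median 0.59). Pdgfb had 10.47, 9.98, 10.15 and 10.11 with GDF11, against 8.28, 8.51, 8.30 and 8.32 in serum-free medium. The GDF11 arrays were at least 1.4 log2 units above the highest serum-free array, a change of 1.83 ± 0.13 (adjusted p = 9.51e-07), while a weaker probe gave 0.34. Pdgfa, the other chain of the PDGF dimer, had 9.97, 10.36, 10.26 and 10.17 with GDF11, against 8.16, 8.35, 8.91 and 8.46 in serum-free medium and rose by 1.72 ± 0.15 (adjusted p = 1.42e-05). Pdgfc rose by 1.05 ± 0.29 and lost the call with the term (0.53) and without any 1 of 6 arrays (highest adjusted p 0.113); Vegfb changed by -0.57 ± 0.10 and Vegfa by 0.08 ± 0.13 (adjusted p = 0.00213 and 0.699). With median scaling Vegfb was at 0.00 (adjusted p = 0.998).

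Of 10 EGF family genes Areg (0.97 ± 0.14), Ereg (0.50 ± 0.13) and the receptor gene Egfr (0.82 ± 0.15) rose and the neuregulin gene Nrg1 changed by -0.89 ± 0.18 (median 0.11). The other 3 Egfr probes gave 0.43, -0.06 and 0.24, none called, and Ereg lost its call without 4 arrays (highest adjusted p 0.0839). Igfbp5 was the single called gene of 9 of the IGF axis (median -0.03). Among 16 FGF, MET and related genes 3 rose and 3 fell (median -0.03). The rises were the RON receptor gene Mst1r (1.25 ± 0.19), the collagen receptor gene Ddr1 (1.01 ± 0.18, second probe 0.09) and Efna1 (0.85 ± 0.21). The falls were Fgfr2 (-0.93 ± 0.12), Efna5 (-0.78 ± 0.14) and Fgf1 (-0.61 ± 0.17). Efna1 and Fgf1 lost the call without 5 and 6 arrays (highest adjusted p 0.0753 and 0.118), and Fgf1 with the term (-0.35).

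Of 27 hedgehog, Wnt and Notch genes 4 rose and 3 fell (median 0.18). Wnt7a, a Wnt ligand, rose by 1.07 ± 0.15, and the Notch ligand genes Jag1 by 0.82 ± 0.14 and Dll1 by at least 1.21-fold, Dll1 being not well above background in serum-free medium. Of the Frizzled receptors, Fzd5 and Fzd7 changed by -1.38 ± 0.14 and -0.66 ± 0.14 (adjusted p = 3.09e-05 and 0.00845), and Fzd1 rose by 0.84 ± 0.22, a call lost without 4 arrays (highest adjusted p 0.0894). Shh was the third fall. The hedgehog targets Ptch1, Gli1 and Hhip were detected on too few arrays to be tested.

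Of 23 cytokine and chemokine genes 5 rose and 1 fell (median 0.19). After Il11 came Ccl7, a monocyte chemokine (1.43 ± 0.20), Cxcl16 (0.57 ± 0.11), Csf1 (0.48 ± 0.13) and Lif (0.44 ± 0.12). Csf1 and Lif lost their calls without 6 and 5 arrays (highest adjusted p 0.0839 and 0.101), and Csf1 with the term (adjusted p = 0.0536). Cxcl1, a neutrophil chemokine, changed by -1.40 ± 0.19 (adjusted p = 0.000516). Among 27 NF-kappaB regulators and TNF receptors Cd40, the feedback inhibitor gene Tnfaip3 (0.54 ± 0.13) and Nfkbie (0.74 ± 0.21) rose, and Tnfrsf21 (-0.83 ± 0.13) and Fas (-0.99 ± 0.23) fell (median 0.12). Fas was -0.56 with the term and Nfkbie was not called with it (0.47); Tnfaip3, Nfkbie and Fas lost their calls without 2, 6 and 5 arrays (highest adjusted p 0.0569, 0.134 and 0.0595). Dusp2, a nuclear MAP kinase phosphatase, was the single called gene of 20 phosphatase and mRNA decay genes (median 0.03). It was not well above background in serum-free medium and rose at least 2.47-fold, and a second Dusp2 probe gave a fitted change of 0.46.

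Of 23 genes of G1 control 3 rose and 3 fell (median -0.15). Ccnd2, cyclin D2, changed by -1.24 ± 0.10 (adjusted p = 6.84e-06), with means of 8.56 ± 0.13 with GDF11 and 9.79 ± 0.02 in serum-free medium (SD, n = 4). With median scaling it was -0.70 and not called (adjusted p = 0.275). Cyclin D3 (Ccnd3) and E2f1, the activator of S phase genes, changed by -0.60 ± 0.14 and -0.66 ± 0.17. The inhibitors Cdkn2b and Cdkn1a rose by 0.87 ± 0.15 and 0.47 ± 0.12, and Ccng2, a cyclin of arrested cells, by 0.95 ± 0.17. E2f1 was -0.38 with the term, and E2f1 and Cdkn1a lost their calls without 6 and 5 arrays (highest adjusted p 0.085 and 0.0768); the other Cdkn1a probes gave 1.30 and 0.93, both called. Myc changed by -0.15 ± 0.19 (adjusted p = 0.595) and was detected on 2 arrays of each group. Among 28 replication and mitosis genes 2 rose and 2 fell (median -0.10): Mcm6 (0.82 ± 0.22) and Prim1 (0.72 ± 0.19) rose, and Cdc6 (-0.71 ± 0.15) and Ccne2 (-0.64 ± 0.17) fell. Of these 4, Cdc6 was called with the term, and Cdc6 alone was called without each array in turn (highest adjusted p of the others 0.0941 to 0.112).

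Of 20 FOXO target and stress genes 5 rose and 4 fell (median 0.19). Gadd45a, a growth arrest gene, rose by 1.65 ± 0.11 (adjusted p = 7.54e-07) and Ddit4, the mTORC1 inhibitor REDD1, by 1.84 ± 0.13 (adjusted p = 1.93e-06). Gadd45g rose by 0.97 ± 0.12 and Fbxo32, the ubiquitin ligase atrogin-1, by 1.05 ± 0.21, with other Fbxo32 probes at 0.05 and 0.38. Txnip, Foxo1 and Tsc22d3 changed by -0.75 ± 0.19, -0.57 ± 0.16 and -0.47 ± 0.14. These 3 lost their calls without 4 or 5 arrays (highest adjusted p 0.09 to 0.146), Txnip and Foxo1 with the term too, and Tsc22d3 turned to 0.12 with median scaling. Among 25 death genes 3 rose and 2 fell (median 0.05). The BH3-only genes Bmf and Bcl2l11 rose by 1.12 ± 0.14 and 1.07 ± 0.22, with other Bcl2l11 probes at 0.40 and 0.65, the first of them not called (detected on all 4 GDF11 arrays and 1 serum-free array), and the BH3-only gene Bbc3 changed by -0.88 ± 0.18, with other probes at 0.28 and 0.24, the second of them detected on no serum-free array. Fas, above, was the other fall. Bak1 rose by 1.2 ± 0.31, a call lost with the term (0.72) and without 5 arrays (highest adjusted p 0.0931).

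Bhlhe40 and Dbp, a clock output factor, were the 2 called of 14 clock genes, and Dbp changed by -1.53 ± 0.16 (adjusted p = 6.13e-05; median 0.07). Of 20 sphingolipid genes Sphk1 rose and 3 fell (median -0.27): the sphingosine phosphate phosphatase Sgpp2 (-1.09 ± 0.13), the sphingomyelin synthase Sgms2 (-1.19 ± 0.19) and the ceramidase Acer3 (-1.22 ± 0.20, second probe -0.24). Of 9 NUAK and salt-inducible kinase genes Nuak2 rose, by 0.92 ± 0.19 (median -0.02). Of 14 amino acid genes Ass1 rose, and Gpt2 and Shmt1 changed by -0.54 ± 0.13 and -0.41 ± 0.12 (median 0.06). The calls of Gpt2 and Shmt1 were lost without 1 and 5 arrays (highest adjusted p 0.0521 and 0.127), and Gpt2 turned to 0.056 with median scaling.

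Of 33 genes of hormone, retinoid and xenobiotic metabolism 8 fell and 2 rose (median -0.17). Dio3, Ugt2b35 and Akr1c19 were followed by the sulfotransferase Sult1a1 (-0.79 ± 0.15), by Akr1c12, Akr1c14 and Gstp1 (-0.63 ± 0.15, -0.85 ± 0.25 and -0.61 ± 0.15), and by the aldehyde dehydrogenase gene Aldh3a1 (-0.59 ± 0.16), not called with the term (adjusted p = 0.101). Akr1c14 and Aldh3a1 were named after their values were seen. Akr1c12 and Gstp1 lost their calls without 6 arrays each (highest adjusted p 0.0629 and 0.0703), and their changes with the term were -0.41 and -0.38. The mean of all Gstp1 probes gave 0.11, the opposite sign, and genes of these families share sequence, so that a probe may read a relative. The rises, Akr1b3 and the retinol dehydrogenase Rdh10 (0.88 ± 0.24 and 1.24 ± 0.37), were not called with the term (0.56 and 0.65) or without any 1 of 6 arrays (highest adjusted p 0.129 to 0.145).

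Of 17 NRF2 and glutathione genes 4 fell and 2 rose (median -0.01). Nfe2l2, which encodes NRF2, changed by -0.79 ± 0.14 (adjusted p = 0.00264), its target Osgin1 by -1.40 ± 0.15 and the cystine transporter gene Slc7a11 by -1.04 ± 0.15. With median scaling none of the 3 was called, at -0.20 for Nfe2l2, -0.83 for Osgin1 and -0.47 for Slc7a11 (adjusted p = 0.701, 0.248 and 0.248). The fourth fall was Keap1, the NRF2 inhibitor (-0.46 ± 0.12), whose other probes gave -0.03, -0.03 and 0.04, which turned to 0.10 with median scaling and lost its call without 5 arrays (highest adjusted p 0.0743). Txnrd1 and Gclm rose by 0.93 ± 0.24 and 0.60 ± 0.16, calls lost with the term (0.58 and 0.34) and without 5 and 6 arrays (highest adjusted p 0.0861 and 0.113).

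In cholesterol and fatty acid synthesis, Elovl6, a fatty acid elongase, changed by -0.86 ± 0.20 among 28 genes tested (adjusted p = 0.0145; list median -0.09), a call lost without 4 arrays (highest adjusted p 0.0523). Of 26 hypoxia and glycolysis genes 1, the oxygen sensor Egln3, fell (-0.80 ± 0.13; median 0.08). Among 22 unfolded protein response genes Trib3 rose (0.65 ± 0.14) and Ddit3 and Chac1 fell (-0.93 ± 0.24 and -0.47 ± 0.14; median -0.10), both of them lost with the term (-0.53 and -0.28) and without any 1 of 6 arrays (highest adjusted p 0.0941 to 0.141), and Chac1 turned to 0.10 with median scaling. Of 17 interferon-stimulated and antigen presentation genes Oasl2 rose (0.65 ± 0.14) and Ifit3, Gbp2 and Psmb10 fell (-0.89 ± 0.21, -0.91 ± 0.22 and -0.55 ± 0.15; median -0.18). These 3 lost their calls without 4 to 6 arrays (highest adjusted p 0.0601 to 0.124), Gbp2 was -0.52 with the term, and Psmb10 lost the call with it (-0.36) and turned to 0.023 with median scaling. Of 55 ribosomal protein genes Rpl14 rose (0.49 ± 0.11) and Rps15a fell (-0.55 ± 0.16), 3.64% called in all (median 0.07). Of 69 oxidative phosphorylation subunits Atp5k rose (0.80 ± 0.16) and Ndufv3 fell (-0.37 ± 0.11), 2.90% in all (median 0.01). Rpl14, Rps15a and Ndufv3 lost their calls without 4 to 6 arrays (highest adjusted p 0.0634 to 0.147), Rps15a and Ndufv3 with the term as well, and Ndufv3 turned to 0.12 with median scaling.

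**Figure D5:**
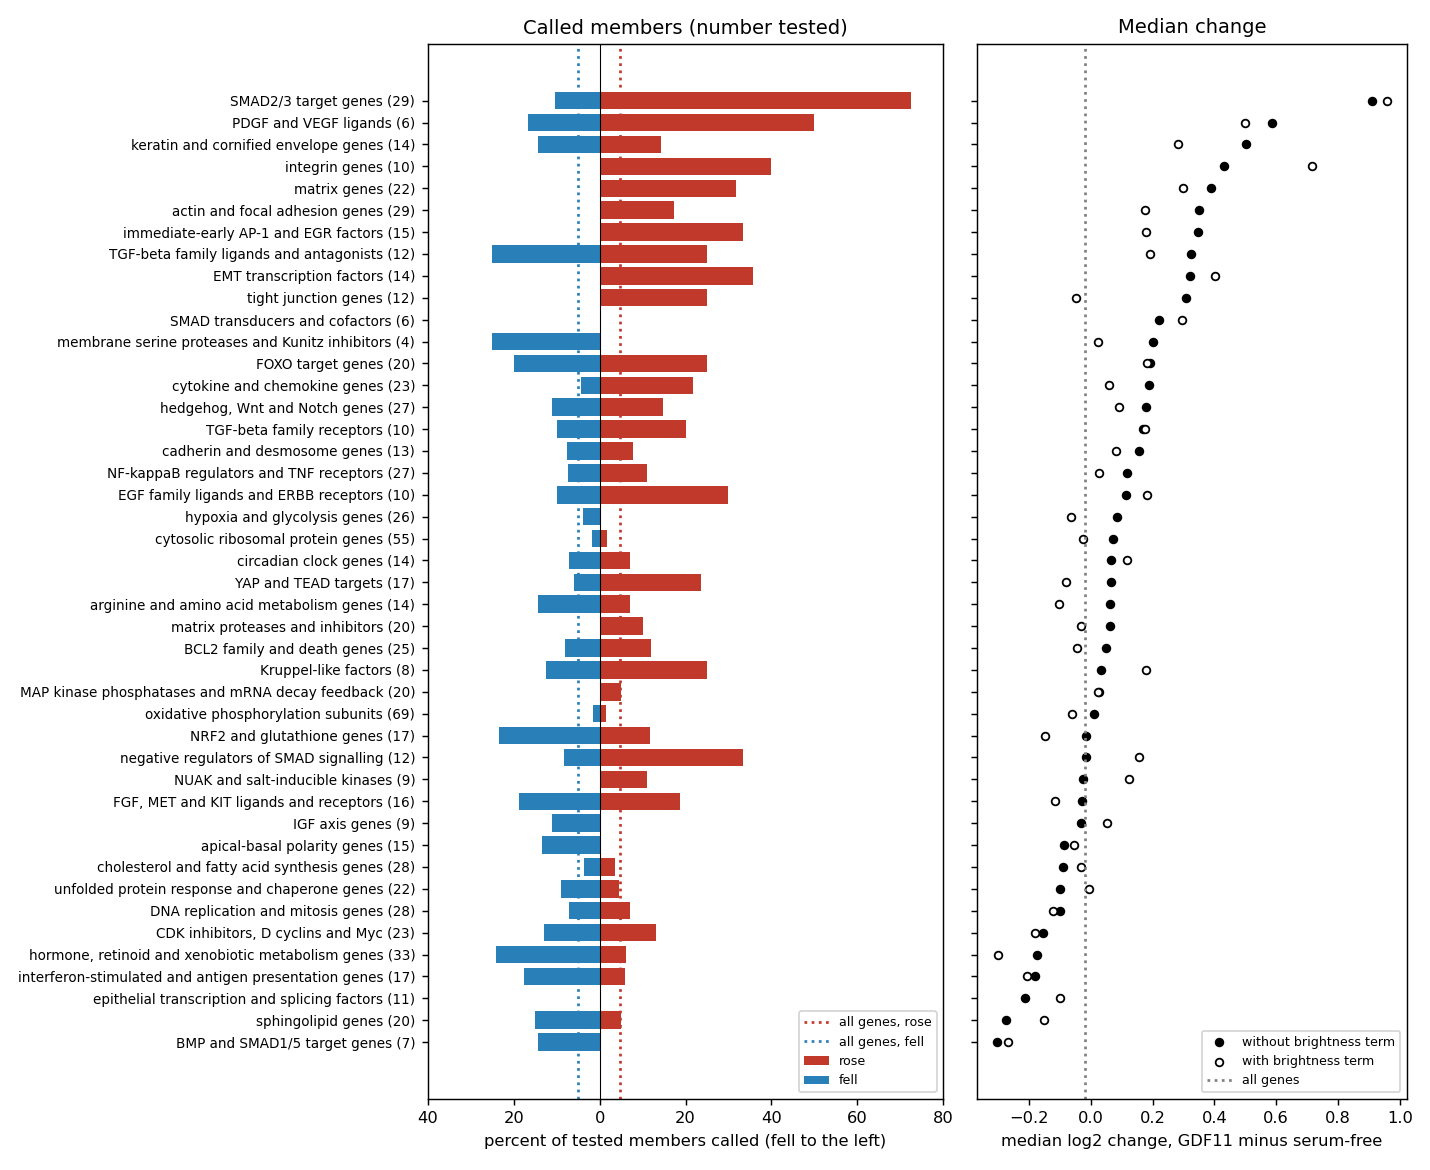
For each gene list reported here (number tested in brackets), the left panel gives the percent of tested members that rose (red, to the right) or fell (blue, to the left) beside dotted lines for all genes tested, and the right panel gives the median log2 change without (filled) and with (open) the brightness term. SMAD2/3 targets, several of them listed with their change known, lie at 0.91 without the term, and BMP and SMAD1/5 targets at -0.30 without and -0.27 with it.

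Of the 180 called named genes, 50 kept direction and call under every alternative that could test them, 39 rises and 11 falls. They were the 15 leading rises, 10 of the leading falls (Akr1c19, Depp1, Dio3, Igfbp5, Kcnk5, Ppargc1b, Ppp1r3c, Rasl11b, Shh and Spsb4), the receptors Acvr1 and Tgfbr1, the ligands Tgfb1, Pdgfa, Pdgfb and Wnt7a, the regulators Nedd4l, Skil and Tgif1, the factors Fos, Junb, Egr2, Ets1 and Ier3, and the matrix and adhesion genes Itgb6, Lamb3, Timp3 and Pdlim7. Bcl2l11, Ddit4, Dusp2, Gadd45a, Gadd45g, Nuak2 and Trib3 made up the rest. With median scaling 47 of 102 rises and 11 of 78 falls were called. These falls were the 10 just named and Nedd4l, the same 11 that kept their call under every alternative. A further 8 falls changed sign, and the other 59 kept it without a call. Median scaling raised the median change of all genes to 0.39, which favours calls of rises over calls of falls. The split of 39 rises and 11 falls therefore does not show that the rises were firmer than the falls. The rises that median scaling left without a call included Actn1, Areg, Bmf, Ccn1, Ccng2, Cdkn2b, Ddr1, Itga6, Itgb5, Jag1, Krt20, Sox9, Tgm2 and Thbs1, all of them still positive. Bright arrays alone ended 59 calls, among them those of Cldn23, Dll1, Klf9, Mmp14, Thbs1, Bbc3, Ccnd3, Slc7a11 and Sult1a1, and dim arrays alone ended 56, among them those of Jag1, Klf13, Runx1, Bbc3, Cdc6, Fzd7 and Nrg1. Cyclic loess ended 20 calls, among them those of Cldn23, Ctnnd1, Dll1, Oasl2, Runx1 and Thbs1. The authors' processed values ended 34, among them those of Atp5k, Dll1, Id3, Oasl2 and Runx1. The 8 arrays alone, normalized and fitted without the TGFB1 arrays, ended 70 and kept 110. Among the 70 were the calls of Ccnd3, Itga6, Klf9, Ltbp1 and Snai1 (adjusted p 0.052 to 0.058).

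Of the called named genes, 48 had other kept probes, 70 in all. Of these 60 had the sign of the leading probe, 22 of them called, and 10 had the opposite sign, none of them called; 7 were detected on no serum-free array. Other probes that were called included those of Gadd45a (1.98), Gadd45g (1.02), Itga5 (0.69), Ccn1 (1.68 and 0.50), Fas (-0.54) and Rasl11b (-0.98). Among rises, those not called included probes of Bok (0.51), Lif (0.01 and 0.36), Ltbp3 (0.28), Nfkbie (0.14), Trib3 (0.51 and 0.45), Tial1 (0.17) and Timp3 (0.60), of which the Tial1 and Timp3 probes were detected on no serum-free array. Tgif1 had 1 other probe called and 1 not (1.09 and 0.40). Among falls, those not called included probes of Ccnd3 (-0.24), Ddit3 (-0.35), Gstp1 (0.18 and 0.77), Ndufv3 (-0.08 and 0.12), Psmb10 (-0.09) and Tnfrsf21 (-0.56).

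Some called changes moved with brightness. For 26 called genes, 14 up and 12 down, the change with the term was under 50% of that without it. The largest of these rises were Bok, a BCL2 relative (1.43 ± 0.36), the chloride channel gene Ano1 (1.39 ± 0.41), Tial1 (1.26 ± 0.35), Ube2j1 (1.23 ± 0.34) and Maff, with changes of 0.71, 0.56, 0.60, 0.59 and 0.56 under the term. Bok had 9.24, 10.34, 10.38 and 10.41 with GDF11, against 8.01, 8.34, 9.96 and 8.34 in serum-free medium. Its 4 bright arrays were above its 4 dim arrays, whatever the group, and the fitted difference of bright minus dim arrays, with the groups in the model, was 1.44. The largest such falls were St8sia4 (-1.0 ± 0.30), Ccdc126 (-0.99 ± 0.26), Tmco6 (-0.95 ± 0.27), Poc1b (-0.89 ± 0.25) and AW549877 (-0.83 ± 0.24), at -0.44, -0.49, -0.41, -0.40 and -0.37 under the term. All 10 lost their calls without 6 of the 8 arrays in turn (highest adjusted p 0.0815 to 0.157).

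The 4 TGFB1 arrays, all of them bright, used the same serum-free arrays, and the doses of the ligands differed (250 ng/mL GDF11 and 50 ng/mL TGFB1), so values are set side by side. Lmcd1 changed by 4.15 ± 0.18 with GDF11 and 4.59 ± 0.18 with TGFB1, and Dio3 by -3.21 ± 0.14 with GDF11 and -3.88 ± 0.14 with TGFB1. With the brightness term Lmcd1 was at 3.91 with GDF11 and 4.22 with TGFB1, and Dio3 at -3.12 with GDF11 and -3.75 with TGFB1. Since the TGFB1 arrays are all bright and 3 of the 4 serum-free arrays dim, the values that follow are those with the term. For Fam210b, Dram1 and Pmepa1 they were 2.03, 2.44 and 1.63 with GDF11 and 2.06, 2.71 and 1.48 with TGFB1. Ass1 changed by 1.87 with GDF11 and 3.19 with TGFB1, Il11 by 2.68 with GDF11 and 4.26 with TGFB1, and Cldn4 by 3.00 with GDF11 and 4.22 with TGFB1, fitted values that for Cldn4 rest on background readings in serum-free medium. Snai1 had 0.75 with GDF11 and 1.80 with TGFB1. The receptor gene Tgfbr1 had 1.88 with GDF11 and 1.92 with TGFB1.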

How the data were processed

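Total RNA was labelled with biotin and hybridised to Illumina beadchips. The deposited table holds, per the file headers, raw bead intensity, its bead standard error, detection p-values and, as another measure, bead numbers for 25697 probes on 12 arrays; 20692 blank lines were dropped. The authors' deposited processed values, taken as log2 because the log base is not given in the sources used here, served as an alternative only. Groups came from the labels.

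Intensities were background-corrected, quantile normalized and log2 transformed (neqc, offset 16). Probes detected at p under 0.05 on at least 4 arrays were kept (12680), and the probe with the highest mean stood for its gene, giving 9134 genes, 18 of them unnamed. Symbols were updated with RefSeq. A model over 12 arrays was fitted with limma 3.58.1 (lmFit, eBayes; R 4.3.3), with Benjamini-Hochberg adjustment over all genes and a threshold of 0.05. Fits were tested on simulated data. Tables and figures used Python 3.11.15, pandas 2.3.3, scipy 1.17.1 and matplotlib 3.10.9. Beads a probe averaged 39.3 ± 0.60 with GDF11 and 39.6 ± 0.44 in serum-free medium (SD, n = 4).

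Members and gene lists were chosen with earlier results of these data known. Named genes were the 15 largest rises and 15 largest falls called with and without the brightness term, with groups that do not overlap and detection on all arrays of the higher group, up to 6 called members of each list in each direction, 21 fixed genes, and 5 rises and 5 falls that moved with brightness. Further genes of the lists and markers were named after their values were seen. Bounds set the brighter group against the detection floor. Alternatives covered normalization, background, filter, probe rule, array sets, left-out arrays and a replicate block. Where the labels do not say that replicates came from separate cultures, p-values measure the spread between arrays. Some genes and 1 gene list are not reported here.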

Additional observations from a re-analysis of the deposited data

Results flagged for a closer look

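In 56 of 374 sets of 4 arrays (187 named genes in each of 2 groups), the highest or lowest array stood apart from the other 3 by Dixon's criterion, where chance gives about 1 in 20. Of these, 29 were on GDF11 replicate 1, the dim GDF11 array, and 22 on serum-free replicate 3, the bright serum-free array. Values are normalized log2 intensities. GDF11 replicate 1 was the lowest of its group for Rhob (9.31), Sox9 (7.15), Tgm2 (11.77), Itga6 (6.21), Ccn1 (7.97), Cald1 (6.05), Ccng2 (8.73), Bmf (8.17), Rdh10 (6.16), Cdh1 (9.89), Id1 (9.17), Id2 (9.07), Bok (9.24) and Ano1 (7.67). It was the highest of its group for Dram1 (8.81), Nedd4l (7.87), Klf5 (9.71), Plod2 (6.89), Wnt7a (7.63), Fzd7 (6.51), Fas (7.84), Ccnd3 (8.32), Bcl2l11 (8.30), Gstp1 (11.76), Keap1 (7.58), Ddit3 (6.83), Ifit3 (5.20), Zeb1 (8.13) and Poc1b (7.29). Serum-free replicate 3 was the highest of its group for Pmepa1 (4.81), Ass1 (5.55), Ltbp1 (6.44), Ltbp3 (9.47), Krt20 (10.95), Actn1 (11.26), Bak1 (5.43), Acvr2a (4.59), Id1 (10.17), Bok (9.96) and Ano1 (8.78). It was the lowest of its group for Ppp1r3c (5.36), Tgfbr1 (10.30), Prkcz (6.71), Nuak2 (9.14), Wnt7a (5.84), Ccnd3 (8.43), Akr1c12 (11.20), Gstp1 (11.68), Slc7a11 (5.37), Ccdc126 (7.41) and Tmco6 (5.87).

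The other arrays stood apart for few genes. GDF11 replicate 2 was lowest for Inhba (6.38). Serum-free replicate 2 was highest for Pdgfb (8.51) and Runx1 (4.77) and lowest for Dusp2 (4.17), and serum-free replicate 4 was lowest for Lamb3 (8.46). Serum-free replicate 3 also stood apart in mean raw intensity (283 scanner units) and in probes detected (48.6%).

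The effect of GDF11 differed between bright and dim arrays for 1 gene, Acta2, the smooth muscle actin gene (limma interaction term, difference -2.79, adjusted p = 0.0397), and 886 genes had an unadjusted p under 0.05 for that term. Acta2 had 6.78, 4.6, 4.77 and 4.90 with GDF11, against 4.35, 4.45, 5.28 and 4.74 in serum-free medium. The difference was -0.52 among bright arrays and 2.27 among dim arrays, which rests on the single dim GDF11 array, and the change over all arrays was 0.56 ± 0.39 (adjusted p = 0.341).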

How the results depend on the processing

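The count of 907 called genes became 563 with bright arrays alone (1 serum-free array), 367 with the 8 arrays alone in the fit, 190 with median scaling, and 313 with the brightness term and without GDF11 replicate 1. With 1 array left out it ran from 444 to 3367. Other normalizations, background corrections, filters and probe rules gave counts within 1.5 times of 907. With median scaling 8 named falls changed sign: Chac1 (0.10), Gpt2 (0.056), Keap1 (0.10), Llgl2 (0.038), Ndufv3 (0.12), Psmb10 (0.023), Tgfbr2 (0.093) and Tsc22d3 (0.12), and the mean of all kept probes turned Gstp1 (0.11). Median scaling raised the median log2 change of all genes to 0.39. The cause of the single sign changes was not tested. Of the 180 called named genes, 151 kept their call with the brightness term and 58 with median scaling.

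Deviations from the group means of same-numbered arrays correlated at 0.44, -0.33, 0.61 and -0.25 for replicates 1, 2, 3 and 4. The positive values belong to pairs of like brightness (replicates 1 and 3) and the negative values to pairs of unlike brightness (replicates 2 and 4). Whether replicate numbers pair the arrays therefore cannot be told from these values. A replicate block, chosen as an alternative with the design, called 868 genes, and the block with the brightness term, added after seeing the data, called 650. Low probes near the detection floor, 4.43 to 4.76 on the log2 scale, were given bounds where no array of the lower group was detected. Where some of those arrays were detected, the fitted change was printed and rests in part on background readings. Such rises include Arid3a and Epb41l2 (detected on 2 serum-free arrays each) and Thbs1, Ctnnd1 and Runx1 (1 each). The fall of Shh, detected on 2 GDF11 arrays, is of this kind too.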
